A study of Mus musculus with 39 samples.

Results

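Semaphorins, Slits and netrins are extracellular cues that attract or repel growing axons and migrating neurons, and plexins, neuropilins, Robo proteins, DCC and UNC5 proteins are the receptors that read them. In the embryonic cortex these cues act on newborn neurons as they leave the germinal zones and extend axons. Notch signalling, which maintains radial glial cells (RGCs), acts in the nucleus through the Notch intracellular domain (NICD) and its DNA-binding partner RBPJ, whose recognition sequence contains TTCCCA, or TGGGAA on the other strand. The guidance genes were taken by symbol: the protein-coding genes of the semaphorin classes 3 to 7, plexins A to D, Slit, Robo, netrin, netrin-G, Unc5 and neuropilin families and Dcc. They numbered 49 of the 21938 protein-coding genes on the nuclear chromosomes. A binding site was given to the gene with the nearest protein-coding start site, which assigned 215 of 20809 nuclear consensus sites to the 49 genes.

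The sites come from Targeted DamID (TaDa), in which a Dam methylase fused to a protein marks GATC sequences near the places it binds. Wild-type MF1 embryos were electroporated in utero at E13.5 and the cortex was dissected at E14.5. Plasmids with the Hes5 promoter gave the RGC samples, and plasmids with the Tα1 promoter gave those of intermediate progenitor cells (IPCs). Human RBPJ1 was profiled in 3 samples of each cell type. Notch was profiled in 4 samples of each, namely 2 of mouse NICD and 2 of mouse NΔECD (NdECD in the labels) in RGCs and 4 of mouse NICD in IPCs. Both are the intracellular domain, with (NΔECD) or without (NICD) the transmembrane domain, and were expressed from the plasmids. The paper describes Notch in IPCs as expressed ectopically and reports low Notch1 levels in these cells. Dam-only controls comprised 5 samples in RGCs and 4 in IPCs. Peaks were called against Dam-only samples, and which of these entered each pair is not given in the sources used here. The promoter on the plasmid alone set the cell type, since cells were not sorted, and the lists hold no expression against which the RGC and IPC labels could be checked. The authors deposited 1 peak list for each protein and cell type, holding peaks found in all pairs of fusion and Dam-only samples, and 1 file of consensus sites, in which the peaks of the 4 lists are merged and placed in 8 k-means clusters. The files give positions only. Sequencing depth and the spread between samples are therefore unknown, no test between conditions was possible, and the intervals below are Wilson intervals for shares and exact Poisson intervals for densities, at a level of 95%. They cover counting error over sites or genes, and sites of 1 gene are not independent of each other.

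Of the 215 sites, 2 were called in all 4 lists and 8 in 3 lists. They lay at Plxna2 (2 sites), Ntn4, Robo1, Robo2, Sema3a, Sema5b, Sema6a, Sema6d and Unc5c. As background, plexin-A2 binds semaphorins, ROBO1 and ROBO2 bind Slits, UNC5C binds netrin-1, and netrin-4 is a secreted netrin found in basement membranes. The stretches below show the sequence under the peaks shared by the most lists. Each is 120 bases on GRCm38 (mm10) outside annotated exons, taken from the longest part of a site that lies in a peak of every list calling it. The stretch with the most TTCCCA words, on either strand, was chosen, so that each holds a word by construction. Capitals mark TTCCCA or TGGGAA.
Plxna2, chr1:194587091-194587210, plus strand: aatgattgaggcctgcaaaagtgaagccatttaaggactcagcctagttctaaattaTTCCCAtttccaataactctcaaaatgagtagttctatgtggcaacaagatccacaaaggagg
Sema6d, chr2:124469937-124470056, plus strand: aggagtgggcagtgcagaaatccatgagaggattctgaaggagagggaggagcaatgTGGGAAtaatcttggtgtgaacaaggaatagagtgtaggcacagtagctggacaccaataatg
Ntn4, chr10:93699585-93699704, plus strand: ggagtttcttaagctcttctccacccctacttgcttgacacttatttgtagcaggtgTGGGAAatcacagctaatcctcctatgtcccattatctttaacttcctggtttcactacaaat
Plxna2, chr1:194161185-194161304, plus strand: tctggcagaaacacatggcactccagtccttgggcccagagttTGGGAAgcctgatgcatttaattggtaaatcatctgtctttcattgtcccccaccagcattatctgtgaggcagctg
Robo1, chr16:72402394-72402513, plus strand: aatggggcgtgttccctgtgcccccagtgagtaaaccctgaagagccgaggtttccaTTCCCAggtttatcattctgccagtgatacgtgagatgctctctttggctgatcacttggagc
Robo2, chr16:74375035-74375154, plus strand: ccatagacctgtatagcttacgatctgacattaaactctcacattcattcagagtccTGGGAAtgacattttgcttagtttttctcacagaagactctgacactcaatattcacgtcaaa
Sema5b, chr16:35625468-35625587, plus strand: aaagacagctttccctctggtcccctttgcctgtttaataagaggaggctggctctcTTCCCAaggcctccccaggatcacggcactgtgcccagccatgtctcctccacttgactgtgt
Unc5c, chr3:141691932-141692051, plus strand: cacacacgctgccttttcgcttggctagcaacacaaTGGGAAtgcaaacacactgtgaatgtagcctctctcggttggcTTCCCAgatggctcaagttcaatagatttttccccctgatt
The Unc5c stretch holds 2 words, 1 on each strand, and the other stretches hold 1 each. The first 2 stretches come from the sites called in all 4 lists, those of Plxna2 and Sema6d. The Sema3a site is not shown because its shared part gave no such stretch, and no sequence is shown for Sema6a. In the shared part of the Sema6a site, 756 bp long, no TTCCCA word was found. TTCCCA was as dense in the sites of the guidance genes as in all sites, at 1.17 words per kb (1.08 to 1.28) against 1.17 (1.16 to 1.18). At least 1 word was present in 186 of the 215 sites, 86.5% (81.3 to 90.4), against 82.9% of all consensus sites. The longer word TTCCCAC, which contains TTCCCA, was present in 40.5% of them (34.1 to 47.1) and in 41.2% of all sites. The homeodomain word TAATTA, which reads the same on both strands, occurred 0.444 times per kb (0.385 to 0.508) in the sites of the guidance genes and 0.358 times (0.352 to 0.363) in all sites. This word holds only A and T, and the median share of G and C bases was 43.4% in these sites, against 45.3% in all sites. The part of base composition in the TAATTA density was not tested. In the central 500 bp of sites, TTCCCA had a density of 1.01 per kb (0.833 to 1.22) in the guidance genes and 1.18 (1.16 to 1.20) in all sites.

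A consensus site was assigned to 37 of the 49 guidance genes, 75.5% (61.9 to 85.4), against 38.7% of all protein-coding genes. Peaks of RGC RBPJ were assigned to 30 genes, 61.2% (47.2 to 73.6), where 30.9% of all genes had one. For RGC Notch these values were 18 genes, 36.7% (24.7 to 50.7), against 11.5%. For IPC RBPJ they were 26 genes, 53.1% (39.4 to 66.3), against 16.1%, and for IPC Notch 20 genes, 40.8% (28.2 to 54.8), against 6.92%. In each list, the share of guidance genes with a peak thus lay above that of all genes by more than the counting intervals.

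Guidance genes are long and often lie in gene-poor regions, which gives them more DNA in which a site can fall. The territory of a gene, the DNA nearer to its start sites than to those of any other protein-coding gene, had a median of 173.7 kb in the guidance genes and 45.0 kb in all genes. Below 50 kb, 8 of 17 guidance genes had a site, 47.1%, against 20.6% of all genes of that size. From 50 to 200 kb, 8 of 10 had one, 80.0% against 50.3%, and from 200 kb, 21 of 22 had one, 95.5% against 80.0%. Per Mb of territory, guidance genes had 10.8 sites (9.38 to 12.3) and all genes 7.63 (7.53 to 7.74). The density lay above that of all genes in each of the size classes, with 22.5 against 10.3 sites per Mb below 50 kb, 14.7 against 9.09 from 50 to 200 kb, and 10.2 against 6.64 from 200 kb. These densities rest on 11, 19 and 185 sites of the guidance genes. No interval was computed within a size class, so whether these shares and densities differ by more than counting error is not shown. By list, the peaks per Mb were 6.72 (5.63 to 7.95) against 5.17 for RGC RBPJ and 2.06 (1.47 to 2.79) against 1.36 for RGC Notch. They were 3.41 (2.65 to 4.32) against 2.02 for IPC RBPJ and 1.60 (1.10 to 2.26) against 0.791 for IPC Notch.

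**Figure D1:**
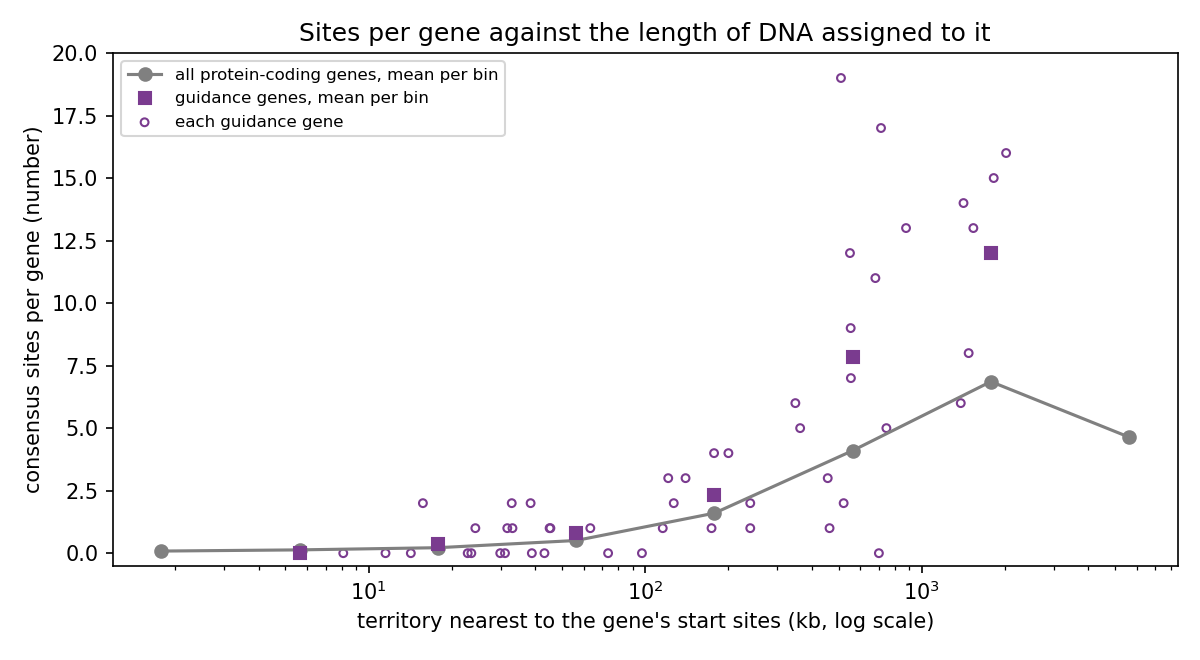
Consensus sites per gene (number) against the territory of the gene (kb, log scale). Open circles are the 49 guidance genes, squares their mean and grey points the mean of all protein-coding genes in bins of territory. Between 316.2 and 1000 kb the 14 guidance genes had a mean of 7.86 sites and all 1597 genes a mean of 4.10.

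Among the sites of the guidance genes, 134 were called in the RGC RBPJ list, 62.3% (55.7 to 68.5), against 67.6% of all sites. The RGC Notch list called 41, 19.1% (14.4 to 24.8), against 17.7%. The IPC RBPJ list called 68, 31.6% (25.8 to 38.1), against 26.2%, and the IPC Notch list 31, 14.4% (10.3 to 19.7), against 10.1%. Grouped by cell type, 126 sites were called in RGC lists only, 58.6% (51.9 to 65.0), against 66.1% of all sites. A further 63 were called in IPC lists only, 29.3% (23.6 to 35.7), against 22.4%, and 26 in lists of both cell types, 12.1% (8.39 to 17.1), against 11.5%. The values of all sites lay just outside the intervals for RGC lists only and IPC lists only. In a check chosen after seeing the data, which left out 1 gene at a time, the interval for RGC lists only included the value of all sites without Robo2, at 60.4% (53.5 to 66.9). The interval for IPC lists only stayed above the value of all sites in each of these, with the lowest share, 28.2% (22.5 to 34.8), again without Robo2. The higher share lay with the receptor genes, which had 43 of their 121 sites in IPC lists only, 35.5% (27.57 to 44.39). The semaphorin, Slit and netrin genes had 19 of 90, 21.1% (13.95 to 30.63), an interval that includes the value of all sites. Most sites, 168 or 78.1% (72.1 to 83.1), were called in 1 list, against 82.9% of all sites, and 10 in 3 or 4 lists, 4.65% (2.55 to 8.35), against 3.88%.

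RBPJ and Notch were called together in RGCs at 23 sites, 10.7% (7.23 to 15.5), against 7.77%, and in IPCs at 10 sites, 4.65% (2.55 to 8.35), against 2.36%. Counted by peaks, 23 of 41 RGC Notch peaks overlapped an RGC RBPJ peak, 56.1% (41.0 to 70.1), against 44.0% of all RGC Notch peaks. In IPCs this held for 11 of 32 Notch peaks, 34.4% (20.4 to 51.7), against 22.5%. The intervals of both peak shares include the value for all peaks. The lists may share Dam-only samples, and the part of shared controls in this overlap was not tested.

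**Figure D2:**
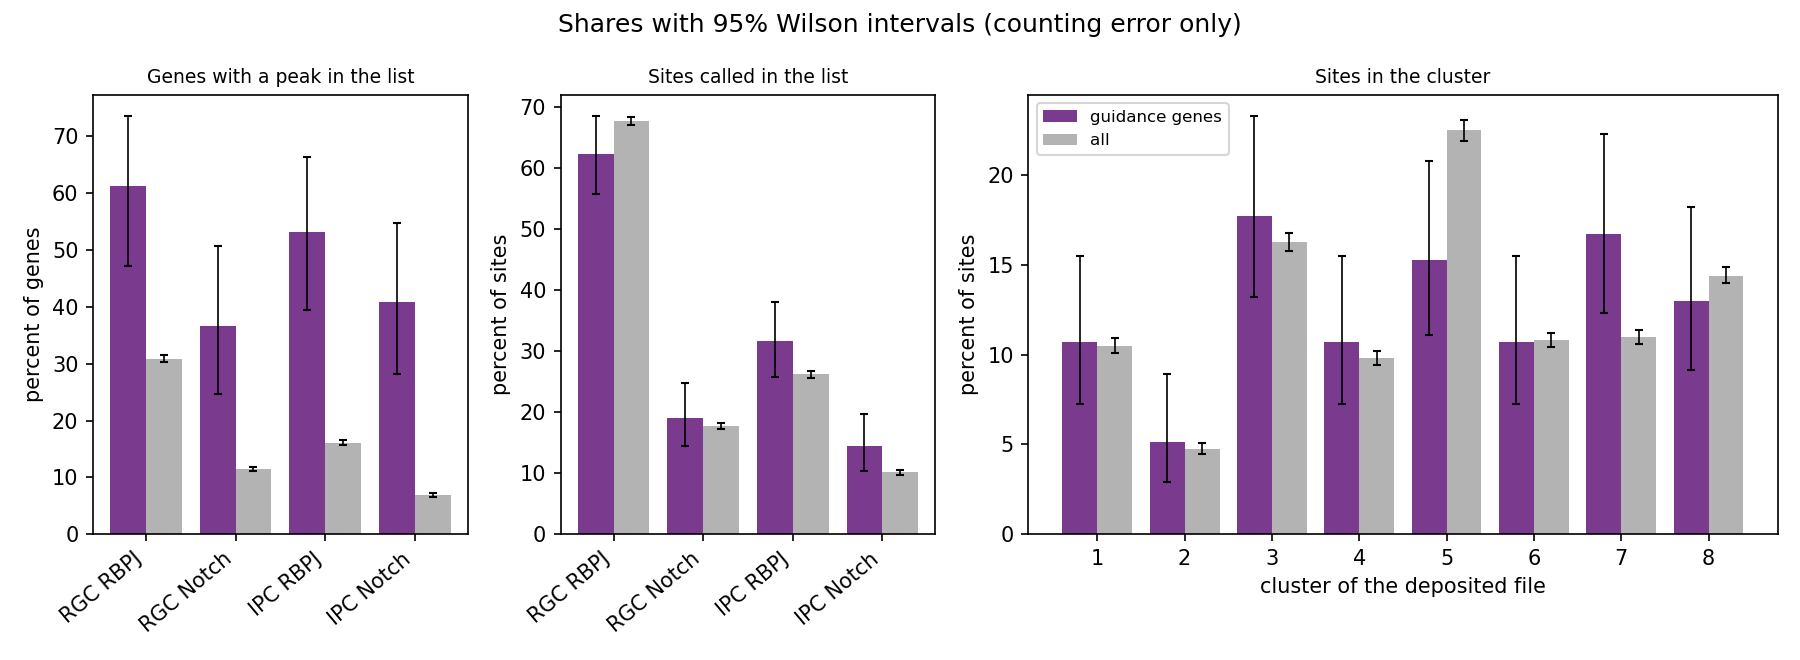
Percent of genes with a peak in each list (left), and percent of consensus sites called in each list (middle) or placed in each cluster (right), for the guidance genes (purple) and for all genes or sites (grey). Bars are shares and whiskers 95% Wilson intervals, with cluster 5 at 15.3% against 22.5% and cluster 7 at 16.7% against 11.0%.

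By cluster, the guidance genes differed from all sites by more than the counting intervals in clusters 5 and 7. Cluster 5 held 33 of their sites, all called for RBPJ in RGCs, or 15.3% (11.1 to 20.8) against 22.5%. Cluster 7 held 36, with 23 RGC RBPJ and 20 IPC RBPJ calls, or 16.7% (12.3 to 22.3) against 11.0%. Nrp2 alone gave 9 of the 36 sites of cluster 7, and without it the share was 13.6% (9.54 to 19.1), an interval that includes the value of all sites. Leaving out any 1 gene moved the share of cluster 5 between 14.4% and 16.6%. Cluster 3 held 38 sites, 37 of them called for RBPJ in IPCs, or 17.7% (13.2 to 23.3) against 16.3%. Clusters 1, 4 and 6 held 23 sites each, or 10.7% (7.23 to 15.5), against 10.5%, 9.79% and 10.8%. Cluster 2 held 11 sites, 5.12% (2.88 to 8.93), against 4.76%, and cluster 8 held 28, 13.0% (9.17 to 18.2), against 14.4%. Dam methylates only GATC, and 15 of the 38 sites in cluster 3 contained no GATC, against 51.3% of all sites in that cluster. The other clusters held 3 such sites of the guidance genes, all in cluster 6.

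Sites of the guidance genes lay farther from start sites than consensus sites in general. The median distance was 82.6 kb, against 21.1 kb for all sites. A start site was covered by 22 sites, 10.2% (6.85 to 15.0), against 16.6% of all sites. The territory limits how far a site can lie from its start, and its median was 173.7 kb in the guidance genes against 45.0 kb. Distances were not compared between genes of like territory. Among sites within 100 kb of a start, 18.3% covered one, against 21.4% of all such sites. By their midpoint, 132 sites lay in introns, 72 between genes, 7 in UTR exons and 4 in other exons. Of the 215 sites, 128 lay within the gene to which they were assigned, 68 upstream of it and 19 downstream. RefSeq promoters (GRCm38.p6, 250 bases before to 50 after the start) were found for 40 of the 49 genes, 53 promoters in all. TTCCCA was present in 11 of the 53, 20.8%, and in 25.6% of the 32851 promoters of the table. Of the 10 promoters that lay wholly inside a site, those of Ntn4 and Plxnb1 held the word, in each case not in the 250 bases before the start.

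**Figure D3:**
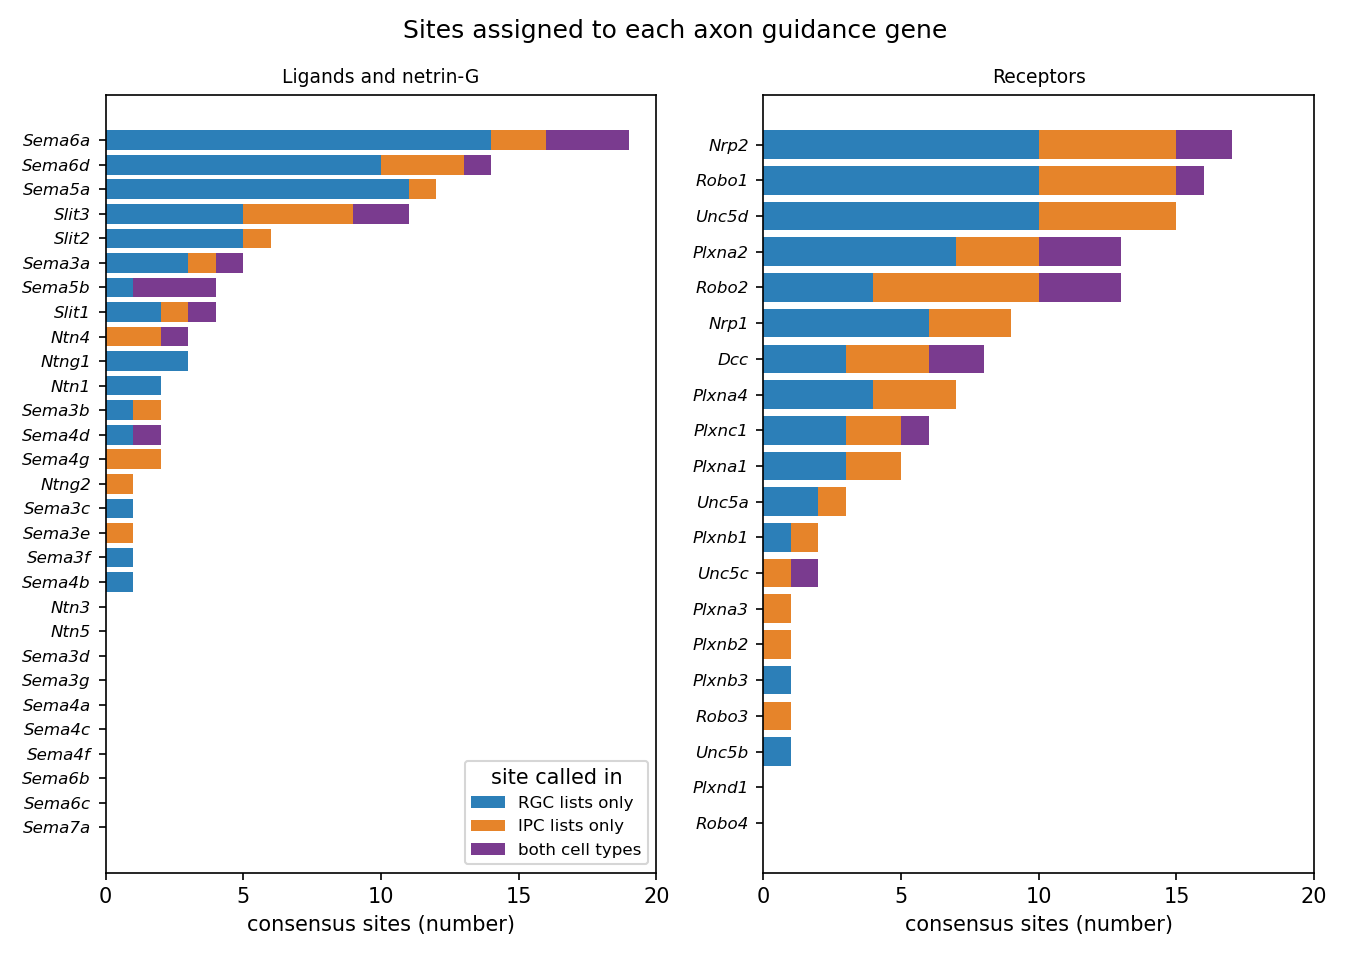
Consensus sites (number) assigned to each of the 49 guidance genes, ligands and netrin-G on the left and receptors on the right. Colours show sites called in RGC lists only, IPC lists only or both. Sema6a had 19 sites and Nrp2 had 17, and 12 genes had none.

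Among ligands, the 20 semaphorin genes had 64 sites, at 11.9 sites per Mb. Sema6a (ENSMUSG00000019647, chr18:47235598-47368870, minus strand), which encodes a transmembrane semaphorin that binds plexin-A2 and plexin-A4, had the most sites of all guidance genes. Its 19 sites, at 37.2 per Mb, comprised 16 of the RGC RBPJ list and 6 of RGC Notch, while the IPC lists held 4 (RBPJ) and 1 (Notch). Of all protein-coding genes, 47 had as many sites or more. Of the 19, 14 were called in RGC lists only, the combination that held 66.1% of all consensus sites, 2 in IPC lists only and 3 in both. They formed a row over the gene and the region upstream, with 6 within the gene and 13 before its start, the farthest 334.6 kb away. None covered a start site, and the nearest lay 0.369 kb from one. Sites in a gene body alone numbered 6, and when start sites of non-coding genes were also allowed, 7 were nearest to Sema6a.

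Sema6d (ENSMUSG00000027200, chr2:124089969-124667770, plus strand), another transmembrane semaphorin, had 14 sites. The RGC lists called 10 (RBPJ) and 4 (Notch) of them, and the IPC lists 3 and 2. The site called in all 4 lists, at chr2:124469331-124474044, is 4714 bp wide and lies in an intron, 136.1 kb from the nearest start site. Peaks of all 4 lists shared 1376 bp of it. Sema5a (ENSMUSG00000022231, chr15:32244810-32696341, plus strand), a semaphorin with thrombospondin repeats, had 12 sites. The RGC lists called 8 (RBPJ) and 5 (Notch) of them, whereas the IPC lists called 1 (RBPJ) and 0 (Notch). All but 1 lay within the gene. The pair called for both proteins in RGCs lay on either side of its outermost start. They were 0.363 and 0.603 kb from their nearest start sites, which differ. The site at 0.363 kb held 7 TTCCCA words in 1393 bp, or 5.03 per kb.

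Sema3a, which encodes a secreted repellent that acts through neuropilin-1, had 5 sites, all within the gene. The site at chr5:13398034-13402595 covered an internal start site and was called for both proteins in RGCs, and in IPCs for RBPJ. Sema5b had 4 sites, of which 3 were called in both cell types. The site at its start, chr16:35539159-35544347, was called for RBPJ in RGCs and Notch in IPCs, and an intronic site at chr16:35623243-35629525 for both proteins in RGCs and RBPJ in IPCs. Sema3b, Sema4d and Sema4g had 2 sites each, and Sema3c, Sema3e, Sema3f and Sema4b had 1 each. Sema3f, the main neuropilin-2 ligand, had its single site on a start site and in the RGC Notch list only. No site was assigned to Sema3d, Sema3g, Sema4a, Sema4c, Sema4f, Sema6b, Sema6c or Sema7a. For 7 of these 8 genes the territory was under 100 kb, and for Sema3d it was 699.9 kb.

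The Slit genes, which encode secreted repellents, had 21 sites, at 9.37 per Mb: Slit3 had 11, Slit2 had 6 and Slit1 had 4. Slit3 was called in all 4 lists, at 6 (RBPJ) and 1 (Notch) of its sites in RGCs and at 5 and 1 in IPCs. Slit2 was called in the RBPJ lists only, at 5 sites in RGCs and 1 in IPCs, and Slit1 at 2 sites for RGC RBPJ, 1 for RGC Notch and 2 for IPC Notch. The 4 netrin genes had 5 sites, at 13.0 per Mb. Ntn1, which encodes the attractant netrin-1, had 2, both called for RBPJ and Notch in RGCs and in no IPC list. Ntn4 had 3, all called for RBPJ in IPCs. Its site at chr10:93698250-93702897, in an intron 57.2 kb from the start, was called for RBPJ in both cell types and Notch in IPCs, and that at its start, chr10:93638621-93641232, for both proteins in IPCs. Ntn3 and Ntn5 had no site. Of the membrane-anchored netrin-G genes, Ntng1 had 3 sites, in RGC lists only, and Ntng2 had 1, in the IPC RBPJ list. The netrin-G genes had 6.98 sites per Mb.

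Among receptors, the neuropilins had the highest density of the families, 20.5 sites per Mb. Nrp2 (ENSMUSG00000025969, chr1:62703285-62818695, plus strand), the co-receptor for semaphorin 3F, had 17 sites, 12 of RGC RBPJ, 7 of IPC RBPJ and none of either Notch list. Singled out after its values were seen, it was the only gene without a Notch call among the 67 protein-coding genes with at least 17 sites, whose sites were called for Notch in 35.5% of cases. Of its sites, 10 lay in introns of the neighbouring gene Pard3b, between 137.4 and 504.5 kb upstream, 1 covered its start, 3 lay within the gene and 3 downstream. When start sites of non-coding genes were also allowed, 2 sites were nearest to Nrp2. Nrp1, the co-receptor for semaphorin 3A, had 9 sites and was called in all 4 lists. The site at its start, chr8:128354658-128358759, was called for both proteins in RGCs.

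**Figure D4:**
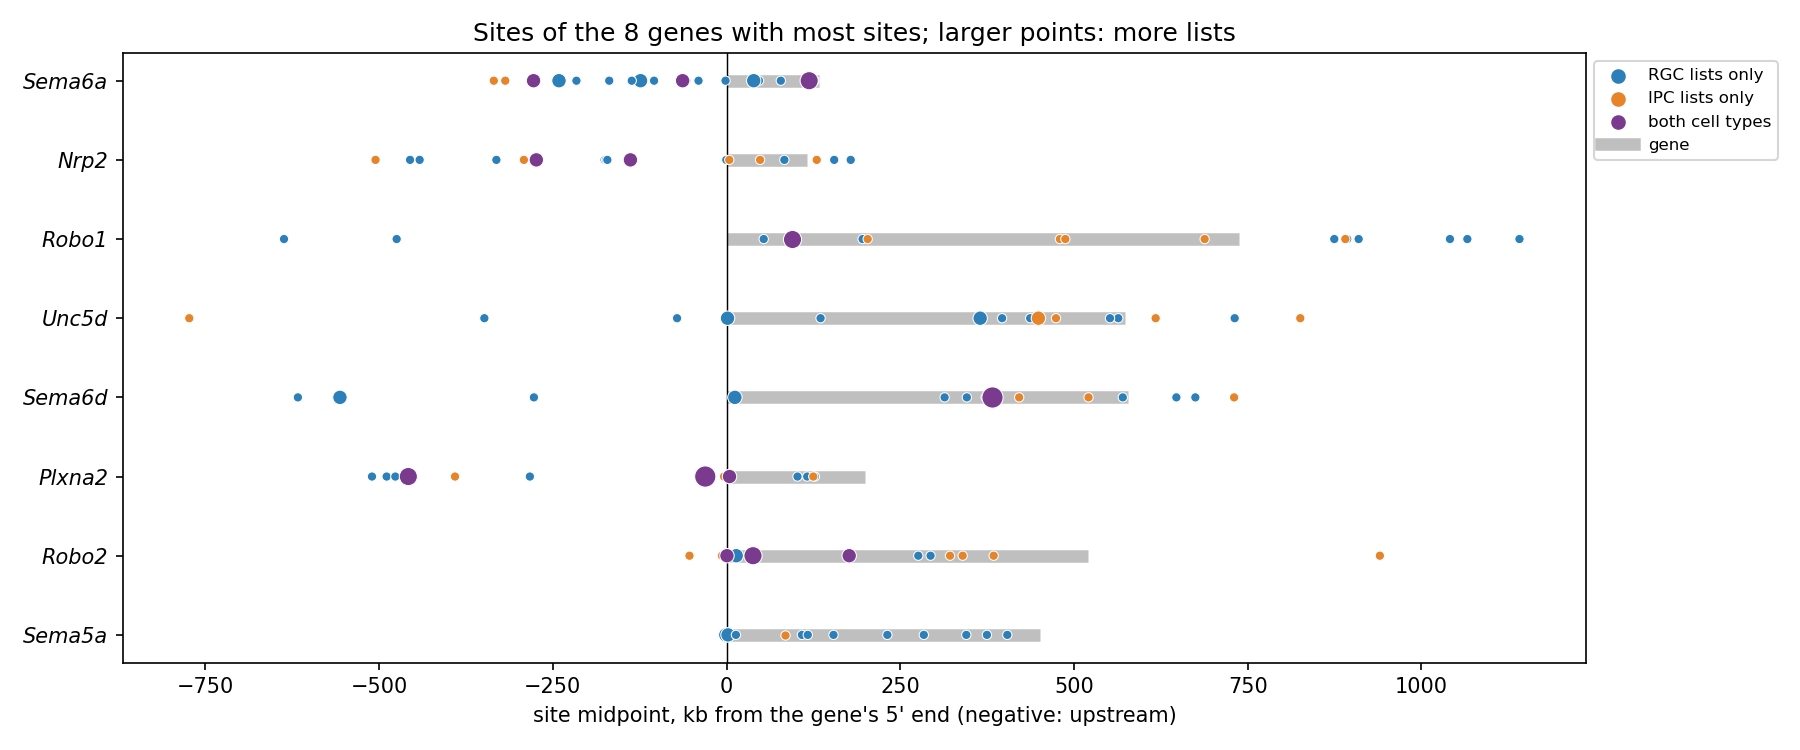
Position of each consensus site (midpoint, kb from the gene's 5′ end, negative upstream) for the 8 genes with most sites, with the gene as a grey bar. Larger points were called in more lists and colours show the cell types, and points close together overlap. Sema6a has 13 of 19 sites upstream, and Sema5a has 11 of 12 within the gene.

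The 9 plexin genes had 36 sites, at 15.4 per Mb. Plxna2 (ENSMUSG00000026640, chr1:194618218-194816869, plus strand) had 13, called at 9 (RBPJ) and 2 (Notch) sites in RGCs and at 5 and 3 in IPCs. The site called in all 4 lists, at chr1:194586107-194589133, lies between genes, 29.1 kb before the nearest start site, and 1291 bp of it lay in peaks of all 4 lists. A farther site at chr1:194158421-194162180, 456 kb upstream, was called for Notch in both cell types and for RBPJ in IPCs. The same combination of 3 lists occurred at 17 of all sites. A site on a start site inside the gene, at chr1:194619551-194625506, was called for RBPJ in both cell types. Plxna4 had 7 sites, Plxnc1 had 6 and Plxna1 had 5, of which 4 lay in introns of Chchd6. Plxnb1 had 2, both on start sites, and the site at its outermost start was called for RBPJ and Notch in RGCs. Plxna3, Plxnb2 and Plxnb3 had 1 each and Plxnd1 none.

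Of the Robo genes, Robo1 (ENSMUSG00000022883, chr16:72308306-73046095, plus strand) had 16 sites and Robo2 (ENSMUSG00000052516, chr16:73891839-74411825, minus strand) had 13. The family had 8.26 sites per Mb, against 7.63 for all genes, with 7.93 at Robo1 and 8.46 at Robo2. The Robo1 sites were called 8 (RBPJ) and 3 (Notch) times in RGCs and 4 and 3 times in IPCs, and an intronic site at chr16:72401629-72402791 was called for RBPJ in both cell types and Notch in IPCs. The Robo2 sites were called for RBPJ in IPCs more often than in RGCs, at 8 against 6, while Notch was called at 3 in RGCs and 1 in IPCs. An intronic site at chr16:74370742-74376615, 34.3 kb from the nearest start, was called for both proteins in RGCs and RBPJ in IPCs. The site at the outermost start of the GENCODE annotation, chr16:74409074-74413334, was called for RBPJ in both cell types. RefSeq promoters of Robo2 also lie farther upstream, at chr16:75092721-75093020 and chr16:75447244-75447543. Robo3 had 1 site, in the IPC Notch list, and Robo4 none.

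The netrin receptor genes had 29 sites, fewer per Mb of territory than the 7.63 of all genes. By gene, Dcc (5.41 per Mb), Unc5b (5.76) and Unc5c (3.83) lay below that value, and Unc5d (8.24) and Unc5a (21.4) above it. No interval was computed for these densities. Unc5d (ENSMUSG00000063626, chr8:28646717-29219636, minus strand) had 15 sites. Of the 15, 10 were called in RGC lists only (66.1% of all consensus sites), 5 in IPC lists only (22.4%) and none in both (11.5%). The site at its start, chr8:29216007-29220396, was called for both proteins in RGCs. When start sites of non-coding genes were also allowed, 1 site was nearest to Unc5d. In that setting, Sema5a kept 9 sites, Sema6d 8, Robo1 and Robo2 5 each, and Plxna2 and Slit3 3 each. Dcc, the receptor for netrin-1, had 8 sites, of which RGC RBPJ was called at 5, IPC RBPJ at 4, IPC Notch at 2 and RGC Notch at none. Its start site was covered by a site called for RBPJ in both cell types. Unc5a had 3 sites and Unc5b had 1. Unc5c had 2, 1 of which was an intronic site at chr3:141691611-141693248 called for RBPJ in both cell types and Notch in IPCs.

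The lists and clusters were also compared between ligand and receptor genes, and only some of these comparisons are printed here. Of the 90 ligand sites, 24 were called for Notch in RGCs, 26.7% (18.6 to 36.6), and of the 121 receptor sites 16, 13.2% (8.31 to 20.4), where the value of all sites was 17.7%. The ligand value was largely that of the semaphorins, with 20 of 64 sites, 31.2% (21.2 to 43.4). The Slits had 2 of 21, 9.52% (2.65 to 28.9), and all ligands without the semaphorins 4 of 26, 15.4% (6.15 to 33.5), a grouping made after seeing the data. Without any 1 gene the ligand share stayed between 24.4% and 29.1% and the receptor share between 11.3% and 15.4%. Cluster 3 held 9 of the 90 ligand sites (interval 5.351% to 17.92%) and 28 of the 121 receptor sites, 23.1% (16.52 to 31.41), against 16.3% of all sites. Cluster 4 held 15 ligand sites, 16.7% (10.37 to 25.69), and 7 receptor sites, 5.79% (2.83 to 11.46), against 9.79%. Cluster 8 held 6 ligand sites, 6.67% (3.091 to 13.79), and 21 receptor sites, 17.4% (11.64 to 25.08), against 14.4%. In each case the intervals of ligands and receptors overlap, and no difference was tested.

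By gene, 10 were called in all 4 lists: Nrp1, Plxna2, Robo1, Robo2, Sema3a, Sema5b, Sema6a, Sema6d, Slit3 and Unc5d. This was 20.4% (11.5 to 33.6) of the guidance genes, against 2.54% of all protein-coding genes. Genes with large territories were more often called in all lists, and among those from 200 kb the values were 9 of 22, 40.9% (23.3 to 61.3), against 14.0%. Sites in both RGC and IPC lists were found for 24 genes, 49.0% (35.6 to 62.5) against 13.6%, and from 200 kb for 17 of 22, 77.3% (56.6 to 89.9) against 49.3%. Sites in RGC lists only were found for 7 genes, 14.3% (7.10 to 26.7) against 19.8%, and in IPC lists only for 6, 12.2% (5.73 to 24.2) against 5.32%. The 7 were Ntn1, Ntng1, Plxnb3, Sema3c, Sema3f, Sema4b and Unc5b, and the 6 were Ntng2, Plxna3, Plxnb2, Robo3, Sema3e and Sema4g. These genes had 1 to 3 sites each. Among genes with territories from 200 kb, sites in RGC lists only were found for 3 of 22, 13.6% (4.75 to 33.3) against 25.7%. Sites in IPC lists only were found for 1 of 22, 4.55% (0.807 to 21.8), an interval that includes the value of all genes of that size. The higher share of IPC lists only was thus not seen from 200 kb. Another 38 genes that act with these cues and receptors, such as RGM, FLRT, collapsin response mediator and Slit-Robo GTPase activating proteins, had 136 sites at 9.95 per Mb, against 7.63 for all genes. Of them, 34 had a site, 89.5% against 38.7% of all genes. These 38 genes were picked with earlier results of these data known. Their shares were not matched for territory, which reached 3185 kb at Flrt2 and 2687 kb at Lrrc4c. By list, RGC RBPJ was called at 31 of the 38, RGC Notch at 14, IPC RBPJ at 20 and IPC Notch at 10. The shares of all genes were 30.9%, 11.5%, 16.1% and 6.92%. Sites called in 3 or 4 lists lay at Rgma (3 sites), Rgmb, Flrt2 and Lrrc4c. Rgma, which encodes a ligand of the netrin receptor family member neogenin, had 16 sites in all.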

How the data were processed

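TaDa reads had been mapped by the authors to mm10, and broad peaks were called in MACS2 for pairs of a fusion and a Dam-only sample. A false discovery rate filter followed, and peaks found in every pair of a condition were kept. The deposited values are start and end positions in bp and, for the consensus file, a k-means cluster number and the names of the lists. They hold no height, fold, q-value or single-sample value, so depth is unknown. There were 0 columns of single samples to leave out. Of the 39 samples of the series, 14 fusion samples lie behind the lists, called against Dam-only controls. Full-length Notch samples were not analysed here.

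Peaks were read on GRCm38 with the GENCODE annotation (vM21 starts of all transcripts of protein-coding genes) on 21 nuclear chromosomes, and positions are printed counted from 1. A site was assigned to the gene with the nearest start, measured from its edge. Overlap was counted from 1 bp. Words were searched on both strands. Python 3.11.15 with numpy, pandas, scipy and matplotlib was used. On simulated data, the nearest start equalled that of an exhaustive search for 500 of 500 sites, and the planted number of words was found in 200 of 200 sequences.

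Members, families and the list of 38 further pathway genes were chosen with earlier results of these data known. Genes are named by a rule: all members by number of sites, in more detail the 8 with most sites, those with a site in 3 or 4 lists and those with a start site covered in at least 2 lists. Alternatives were distance from the midpoint, a reach of 100 kb, all annotated genes, sites of at least 1000 bp, gene bodies, 1 kb around starts, an overlap of 50%, the central 500 bp, a longer word and, chosen after seeing the data, 1 start site per gene, leaving out 1 gene at a time and ligands without semaphorins.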

Additional observations from a re-analysis of the deposited data

How the results depend on the processing

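No paired analysis was possible because the lists pool the replicates and no column carries a replicate number, and for the same reason no replicate could be left out. Of 76 values recomputed for 14 results, 63 stayed within 1.5 times the main value (counts) or inside its 95% interval (shares and densities), and 13 did not. Sites within 100 kb of a start numbered 120, with 18.3% on a start site (21.4% for all genes) and 12.9 per Mb (9.56 for all genes). With start sites of all annotated genes, the guidance genes had 95 sites at 13.498 per Mb, 25.3% of them called for RGC Notch and 23.2% on a start site, and 70.8% of their RGC Notch peaks overlapped an RGC RBPJ peak. All protein-coding genes then had 10.2 sites per Mb, 18.1% called for RGC Notch and 28.9% on a start site, with 43.1% of RGC Notch peaks on RGC RBPJ peaks. By construction this alternative adds start sites of non-coding genes, which take sites away from the guidance genes. Sites of at least 1000 bp gave 8.72 per Mb, against 6.29 for all genes. Gene bodies held 131 sites, and 15.3% of sites lay within 1 kb of a start (21.8% of all sites). TTCCCA was present at 1.01 per kb in the central 500 bp (1.18 in all sites), and the longer word at 0.270 per kb (0.270 in all sites). The longer word counts among the 13 because its density was judged by the interval of TTCCCA, a shorter word that it contains. Of 294 counts per gene, 57 moved by over 1.5 times. Within gene bodies, Ntn3 and Sema3g had 1 site each, and with 1 start site per gene, chosen after seeing the data, Plxnd1 and Sema3g had 1 each.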
